A study of Mus musculus with 18 samples.

Results

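The aminoacyl-tRNA synthetases were followed in mouse embryonic stem cells while calcineurin, a calcium-dependent phosphatase, was blocked or supplied. Members were all array probes whose gene symbol in the platform annotation was a capital letter followed by ars, with or without a 1 or 2, together with Eprs, Farsa and Farsb, and which were detected (detection p-value under 0.05) on at least 1 of the 18 arrays. Of 60 probes for 32 such genes, 47 probes for 29 genes were detected somewhere and 13 probes were not, and Hars2, Lars2 and Yars2 had no detected probe. Testing required detection on both arrays of some group, which kept 45 of the 47 (1 Iars probe and 1 Wars2 probe, each detected on a single array, were left out), and a gene was read from its brightest kept probe. The 29 genes, 18 cytosolic and 11 mitochondrial, were tested among 10980 genes. Gars and Kars serve both compartments and are counted as cytosolic here. Cars2, Dars, Iars2 and Wars are not analysed here.

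Each synthetase joins an amino acid to its own tRNAs, and the charged tRNA is what the ribosome uses. Most animal cells carry separate genes for the enzymes of the cytosol and of the mitochondrion, and both kinds are encoded in the nucleus. Many of the cytosolic genes are direct targets of ATF4, the transcription factor made when amino acids run short or the endoplasmic reticulum is stressed, and the enzymes for glutamine, arginine, lysine, valine, histidine and phenylalanine are less often named among them. Several cytosolic enzymes are held together in the multi-synthetase complex by the scaffold proteins Aimp1, Aimp2 and Eef1e1.

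The cells were CGR8 embryonic stem cells of strain 129P2/Ola. In the LIF course, leukaemia inhibitory factor (LIF), the cytokine that keeps these cells undifferentiated, was withdrawn for 0, 1 or 3 days. In the CsA course, LIF was withdrawn for the same times in the presence of cyclosporin A (CsA), which blocks calcineurin when bound to cyclophilin. In the deltaCnA course, ideltaCnAES cells, which carry an inducible deltaCnA (a constitutively active form of calcineurin A), were deprived of tetracycline (Tc) for 0, 1 or 4 days, which switches the transgene on. Each of these 9 groups holds 2 arrays. The labels give neither the dose of CsA nor when it was added relative to day 0, and they do not say whether LIF was present in the deltaCnA course or whether the inducible line is a single clone. They do not state that replicates were separate cultures either: a p-value here reflects how far replicate arrays lie apart, which could be technical spread.

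Mean intensity lay between 286.9 and 484 per array, with 40.43% to 44.07% of its 46632 probes detected. The correlation of replicates, taken over genes that are not independent, was 0.9922 to 0.9957. The lowest intensity of an array was -57.95 to -47 in the deltaCnA course and -29.37 to -23.71 in the other courses. Of 6 embryonic stem cell markers measured, 5 were detected on all 18 arrays and Tdgf1 on 12, and their mean log2 level ran from 9.96 (day 3 without LIF) to 11.14 (day 4 of deltaCnA). Of 6 fibroblast markers only Dcn and Thy1 passed the detection filter, and no blood marker did. Ppp3ca, the gene of calcineurin A, and Rcan1, a calcineurin-induced inhibitor of it, were not called at day 1 of deltaCnA (log2 changes of -0.18 and -0.20). Where the Ppp3ca probe lies relative to the truncation is not given, so its level checks nothing about the transgene. In bulk RNA, fewer cells expressing a gene and less RNA of it per cell cannot be told apart.

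Levels below are normalized log2 intensities, given for replicate 1 and then replicate 2, and a change is a difference between means of 2 arrays with its standard error. A gene is called, and said to rise or fall, at a Benjamini-Hochberg adjusted p under 0.05 over all 10980 genes in limma's moderated test. The standing probes of 28 of the 29 genes were detected on all 18 arrays. The exception was Hars, which was undetected on 1 of the arrays at day 3 with CsA. For a listed gene undetected on both arrays of a group, a bound (at least N-fold) sets the mean of the brighter group against the higher, per array, of the lowest level detected and the probe's own level.

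After 1 day of deltaCnA induction most of the cytosolic synthetases that are ATF4 targets had fallen, and none of the other cytosolic ones had. Of the 29 genes 14 were called, 13 lower and 1 higher, where 11.2% of all genes tested were called, 4.63% lower and 6.54% higher. Of the 18 cytosolic genes 10 fell and Farsa rose, and of the 11 mitochondrial genes 3 fell. All 10 cytosolic genes that fell belong to the 11 measured genes of the ATF4-responsive set (Aars, Cars, Eprs, Gars, Iars, Lars, Mars1, Nars, Sars, Tars and Yars). The median log2 change was -0.73 in that set, -0.03 in the other 7 cytosolic genes, -0.09 in the mitochondrial genes and 0.01 over all genes tested. The set was chosen with earlier results of these data known, so its count is not independent evidence of its direction.

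Iars, which charges isoleucine tRNA, had the largest change of the family. Its levels were 9.52 and 9.61 at day 0 and 7.70 and 8.75 at day 1. Both day 1 arrays lay below both day 0 arrays, but replicate 1 was lower than replicate 2 by more than a log2 unit. The change was -1.34 ± 0.23, a 2.54-fold fall (adjusted p = 0.000601). Nars, the asparagine enzyme, was at 12.02 and 12.15 at day 0 and at 10.96 and 11.40 at day 1. It fell by 0.90 ± 0.17 on the log2 scale (adjusted p = 0.00192), with no overlap between the days.

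Sars, the serine enzyme, also charges the selenocysteine tRNA. Its levels were 11.39 and 11.77 at day 0 and 10.49 and 10.88 at day 1, and the change was -0.90 ± 0.16 (adjusted p = 0.000994). A second Sars probe gave -0.92 and was called too. Cars, the cysteine enzyme, went from 9.98 and 10.10 to 8.89 and 9.52, a change of -0.83 ± 0.18 (adjusted p = 0.00389). Of the other Cars probes, 1 was called lower at -1.23 and 1 was not called at -0.77. Mars1, the methionine enzyme that serves both initiation and elongation, was at 12.21 and 12.33 at day 0 and at 11.16 and 11.83 at day 1, a change of -0.77 ± 0.16 (adjusted p = 0.00291). For Sars, Cars and Mars1 the day 1 arrays again lay below both day 0 arrays, replicate 1 the lower of the pair.

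The other 5 called members of the ATF4-responsive set changed by less. They were Lars (leucine, log2 change -0.73), Aars (alanine, -0.66), Tars (threonine, -0.52), Gars (glycine, -0.50) and Eprs (glutamate and proline, -0.48), with adjusted p from 0.00112 for Lars to 0.0452 for Eprs. The Eprs call was lost in 10 of the 15 alternatives, among them each of the 4 left-out arrays. The second Aars probe was called lower at -0.75, while the second Tars probe was at 0.13 and not called, and averaged over both Tars was at -0.19 and not called. Yars, the tyrosine enzyme, was the member of the set that was not called. It was at 6.31 and 6.19 at day 0 and at 5.24 and 6.33 at day 1, so only replicate 1 was low. Its change was -0.46 ± 0.26 (adjusted p = 0.295).

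**Figure D1:**
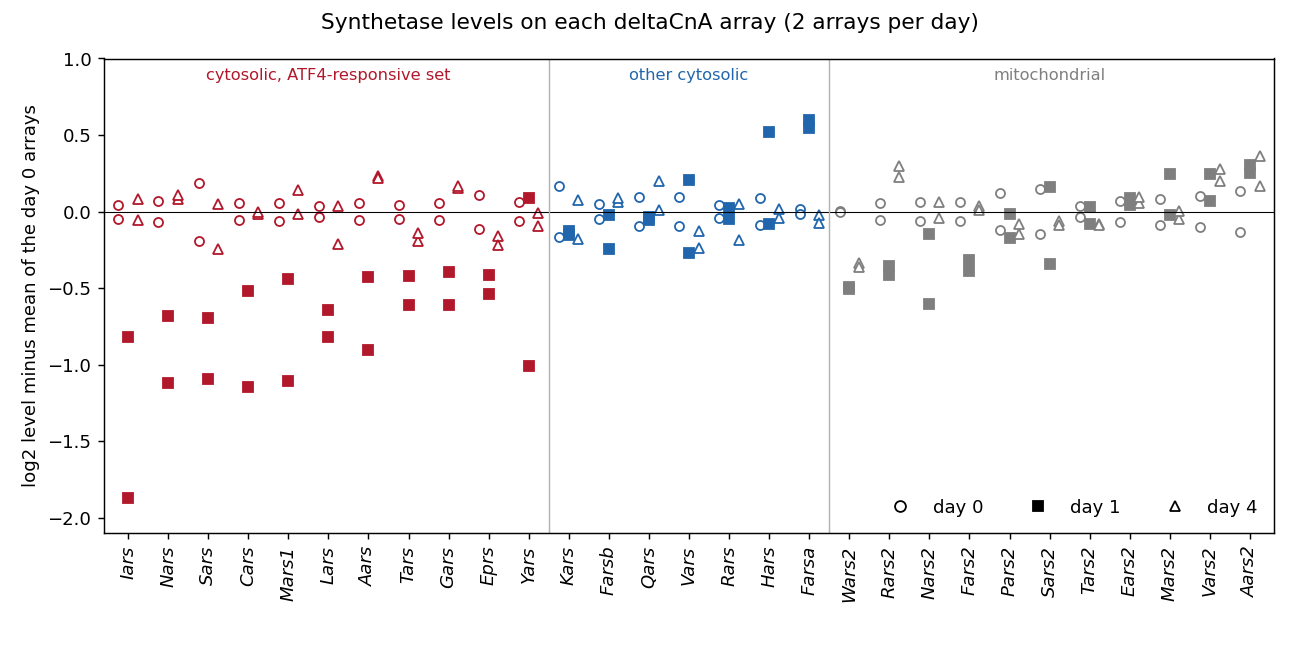
Log2 level of each synthetase on the 6 deltaCnA arrays, minus the mean of the day 0 arrays (vertical axis), with 2 points per day and genes ordered by class and by the day 1 change. The filled day 1 squares lie below 0 on both arrays for 10 of the 11 genes of the ATF4-responsive set, and day 4 triangles lie near 0.

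Both day 1 arrays showed the fall, to unequal extents. On replicate 1 all 11 genes of the set lay below both day 0 arrays, as did 37.5% of all genes tested, with a median change of -1.01. On replicate 2, 10 of the 11 did so, beside 35.3% of all genes, with a median of -0.44, and Yars lay above. Without replicate 1 of day 1 only Iars and Lars were called, 2 of the 29 genes, and 2.18% of all genes. Without replicate 2 of day 1 the count was 11, beside 10% of all genes. Without replicate 1 of day 0 it was 8 (6.34% of all genes), and without replicate 2 of day 0 it was 4 (3.02%). In those fits a group left with a single array is assumed to vary like the others. Scaling arrays to a common median in place of quantile normalization left 6 calls, all of them in the ATF4-responsive set. Over all genes tested it left 309 higher and 159 lower, against 718 and 508 in the main fit. All 11 genes of the set stayed below 0 under each of the 15 alternatives, except Yars without replicate 1 of day 1.

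Of the 7 other cytosolic genes 1 was called. Farsa, the catalytic subunit of the phenylalanine enzyme, was at 10.51 and 10.48 at day 0 and at 11.04 and 11.09 at day 1, with the day 1 arrays higher. It rose by 0.57 ± 0.13 (adjusted p = 0.00648). The second Farsa probe changed by 0.16 and was not called. Its partner subunit Farsb changed by -0.13, which was not called. Kars (lysine), Qars (glutamine), Rars (arginine), Vars (valine) and Hars (histidine) were not called, with changes from -0.14 for Kars to 0.22 for Hars. The 3 probes of Qars lay between -0.04 and 0.02.

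Among mitochondrial genes, Wars2 (tryptophan) was at 8.34 and 8.33 at day 0 and at 7.84 and 7.83 at day 1, and fell by 0.50 ± 0.15 on the log2 scale (adjusted p = 0.028). Rars2 (arginine) went from 10.50 and 10.39 to 10.03 and 10.09, a change of -0.38 ± 0.11 (adjusted p = 0.0284). Fars2 (phenylalanine) went from 10.995 and 11.12 to 10.67 and 10.74, a change of -0.35 ± 0.11 (adjusted p = 0.0497). The day 1 arrays lay below the day 0 arrays for all 3, but each call was lost when any of the 4 arrays was left out. A second Rars2 probe was called lower at -0.68, and the second Wars2 probe was at -0.03, the mean of its probes giving -0.26 with no call. The remaining 8 mitochondrial genes ran from -0.37 for Nars2 to 0.28 for Aars2, none of them called.

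The cytosolic enzymes were also grouped by complex and by fold. In the multi-synthetase complex 4 of 7 genes fell, with a median change of -0.48, and outside it 6 of 11 fell, with a median of -0.50. By catalytic fold, 4 of 8 class I enzymes fell (median -0.60) and 5 of 9 class II enzymes fell (median -0.50), Eprs holding an enzyme of each class. No scaffold gene of the complex was called at day 1. Whether the groupings differ was not tested.

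The promoters in the RefSeq table for this genome were searched for the C/EBP-ATF response element, the composite site through which ATF4 and its C/EBP partners act on amino acid response genes, written TGATGNAA and read on both strands. The window was the 250 bases before and 50 bases after an annotated transcript start in GRCm38.p6. The table held promoters for 22 of the 29 tested genes. The element was found in 5 of 8 genes of the ATF4-responsive set, in 0 of 4 other cytosolic genes and in 0 of 10 mitochondrial genes, where 3.97% of all 32851 promoters held it. The genes with it were Aars, Gars, Iars, Tars and Yars, and Eprs, Mars1 and Sars of the set had no match in this window. A match is a description of letters, not of binding. The 5 promoters that held the element are printed so that its place can be seen, followed by those of Sars, which fell without a match, and Qars, which was not called. Each is read 5′ to 3′ along the gene's strand, with the matched letters in capitals.
Aars (chr8:111033592-111033891, plus strand, GRCm38.p6): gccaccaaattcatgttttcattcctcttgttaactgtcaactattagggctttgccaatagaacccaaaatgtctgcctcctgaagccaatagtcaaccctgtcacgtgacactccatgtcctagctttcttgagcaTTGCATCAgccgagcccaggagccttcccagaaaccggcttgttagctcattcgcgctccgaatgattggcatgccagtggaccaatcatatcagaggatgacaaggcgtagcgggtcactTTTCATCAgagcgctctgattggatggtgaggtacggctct
Gars (chr6:55037751-55038050, plus strand, GRCm38.p6): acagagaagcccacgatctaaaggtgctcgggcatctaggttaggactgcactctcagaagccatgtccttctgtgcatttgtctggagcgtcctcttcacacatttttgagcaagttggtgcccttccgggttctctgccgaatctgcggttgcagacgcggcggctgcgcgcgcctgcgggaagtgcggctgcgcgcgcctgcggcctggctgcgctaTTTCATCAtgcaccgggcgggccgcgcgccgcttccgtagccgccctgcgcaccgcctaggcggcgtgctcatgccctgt
Iars (chr13:49681880-49682179, plus strand, GRCm38.p6): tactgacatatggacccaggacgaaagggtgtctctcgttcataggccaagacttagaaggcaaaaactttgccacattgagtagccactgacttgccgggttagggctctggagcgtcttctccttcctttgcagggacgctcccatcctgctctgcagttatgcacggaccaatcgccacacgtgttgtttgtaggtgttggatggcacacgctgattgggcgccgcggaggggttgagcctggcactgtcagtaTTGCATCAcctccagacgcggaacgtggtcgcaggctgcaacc
Tars (chr15:11399609-11399908, minus strand, GRCm38.p6): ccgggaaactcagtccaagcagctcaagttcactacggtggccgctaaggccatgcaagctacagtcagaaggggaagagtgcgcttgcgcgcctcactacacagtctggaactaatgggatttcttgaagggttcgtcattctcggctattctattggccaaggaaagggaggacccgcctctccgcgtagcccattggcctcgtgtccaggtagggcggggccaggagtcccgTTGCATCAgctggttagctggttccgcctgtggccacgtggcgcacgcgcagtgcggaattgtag
Yars (chr4:129189653-129189952, plus strand, GRCm38.p6): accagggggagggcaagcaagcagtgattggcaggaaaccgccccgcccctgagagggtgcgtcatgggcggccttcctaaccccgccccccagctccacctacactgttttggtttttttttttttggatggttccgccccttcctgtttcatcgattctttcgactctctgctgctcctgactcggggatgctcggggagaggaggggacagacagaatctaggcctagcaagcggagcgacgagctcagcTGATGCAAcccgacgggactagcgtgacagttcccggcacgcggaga
Sars (chr3:108445210-108445509, minus strand, GRCm38.p6): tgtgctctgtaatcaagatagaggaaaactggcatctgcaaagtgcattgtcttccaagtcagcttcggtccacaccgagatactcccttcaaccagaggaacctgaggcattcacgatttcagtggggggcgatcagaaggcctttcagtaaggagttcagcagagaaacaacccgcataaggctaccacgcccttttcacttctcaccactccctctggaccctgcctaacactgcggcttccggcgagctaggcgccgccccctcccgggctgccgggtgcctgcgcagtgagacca
Qars (chr9:108507755-108508054, plus strand, GRCm38.p6): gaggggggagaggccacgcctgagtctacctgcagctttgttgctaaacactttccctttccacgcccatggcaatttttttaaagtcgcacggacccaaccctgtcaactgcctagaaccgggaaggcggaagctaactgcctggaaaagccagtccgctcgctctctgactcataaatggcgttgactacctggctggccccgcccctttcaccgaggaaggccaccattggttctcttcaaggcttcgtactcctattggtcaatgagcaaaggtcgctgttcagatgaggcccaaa

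In Aars the element occurred at both position -112 and position 10 relative to the start site, with the first base of the transcript as position 1. The matches began at -30 in Gars, 8 in Iars, -15 in Tars and 4 in Yars. In Yars the element reads forward, and in the other 4 genes it lies on the opposite strand. Its carriers included both the most changed gene of the family, Iars, and Yars, which was not called. The E-box CACGTG, bound by Myc and related factors, was in 3 of the 8 promoters of the set (Aars, Iars and Tars), in Farsb and in Ears2, and in 7.15% of all promoters. The endoplasmic reticulum stress response element, searched by its full consensus, was in none of the windows of the 22 genes and in 0.119% of all promoters.

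Other genes of the amino acid response fell at the same time. Of 25 measured genes of that list, which holds enzymes, transporters and regulators that ATF4 induces, 17 fell and none rose. Of all genes tested 4.63% fell. The median change of the list was -0.87. The genes with the largest changes were Nupr1, a stress-induced chromatin protein (-2.46), Vldlr, a lipoprotein receptor (-2.44), Chac1, which degrades glutathione (-2.17), and Ddit3, the transcription factor CHOP (-2.05). Atf4 itself was at 9.86 and 9.73 at day 0 and at 8.27 and 9.35 at day 1, and its transcript fell by 0.98 ± 0.25 on the log2 scale (adjusted p = 0.0153). Both day 1 arrays were below day 0, replicate 1 further than replicate 2, as for the synthetases. Without replicate 1 of day 1, 6 of the 25 genes were called, all lower. Markers moved on the same arrays: Sox2, of the stem cell list, fell by 0.51. Of the 4 measured primitive endoderm markers 2 rose, both undetected at day 0: Dab2 was at least 1.32-fold higher, and Sox7, detected on 1 of the 2 day 1 arrays, at least 1.15-fold higher. Gata4 (-0.36) and Gata6 (0.11) were not called. The mean of the 6 stem cell markers was 10.69 to 10.83 at day 1 and 10.89 to 11.11 at day 0, that of the primitive endoderm markers 5.39 to 5.69 against 5.23 to 5.24, and their part in the synthetase changes was not tested.

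**Figure D2:**
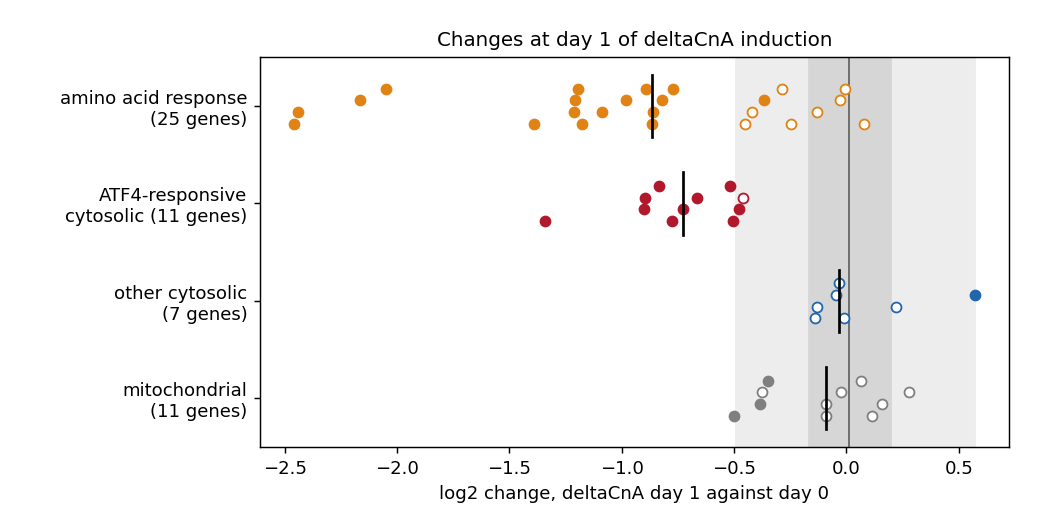
Log2 change of each gene at day 1 of deltaCnA against day 0 (horizontal axis), by class; filled points are called, black bars are class medians, and the grey bands hold the central 50% and 90% of all genes tested around their median line. The ATF4-responsive synthetases (median -0.73) lie with the amino acid response genes (median -0.87), and the mitochondrial genes (median -0.09) lie within or near the grey bands.

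Of 5 cytosolic elongation factors, Eef1d rose by 0.37 and the rest were not called. Of 14 genes of mitochondrial translation, only the initiation factor gene Mtif3 was called, higher by 0.59. None of the 3 measured paralogs and proofreading genes (Tarsl2, Prorsd1 and Aarsd1) was called.

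At day 4 of induction no synthetase was called against day 0. The count was 0 of 29 in limma, where 3.42% of all genes were called. At an unadjusted p under 0.05 in limma there were 2, Rars2 higher and Wars2 lower, beside 1648 of the 10980 genes. The median change was -0.01 in the ATF4-responsive set. Iars was at 9.65 and 9.51, beside 9.52 and 9.61 at day 0, and the groups overlapped.

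Day 4 was also compared directly with day 1, a contrast added after the data were seen. It shares the day 1 arrays with the first contrast, so a low day 1 array enters both. Of the 29 genes 11 were called, 10 higher and 1 lower, where 15.7% of all genes were called, 8.21% higher and 7.46% lower. The cytosolic genes that rose were Iars (1.36), Nars (1.00), Aars (0.89), Mars1 (0.84), Cars (0.83), Sars (0.80), Gars (0.66) and Lars (0.64), all of the ATF4-responsive set. Nars stood at 12.17 and 12.19 and Aars at 13.45 and 13.44 on the day 4 arrays, against 12.32 and 12.79 for Aars at day 1. The day 4 arrays were above both day 1 arrays for each of them. Rars2, at 10.67 and 10.75, rose by 0.65 ± 0.11 (adjusted p = 0.000467), and Fars2, at 11.09 and 11.07, rose by 0.38 ± 0.11 (adjusted p = 0.028). Farsa, at 10.47 and 10.42, fell by 0.62 ± 0.13 on the log2 scale. Without replicate 1 of day 1 the count of synthetases was lower, and the share of all genes called in that fit is not given. Iars, Nars, Aars, Gars and Lars kept their calls in it. Of the 25 amino acid response genes 17 rose from day 1 to day 4.

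**Figure D3:**
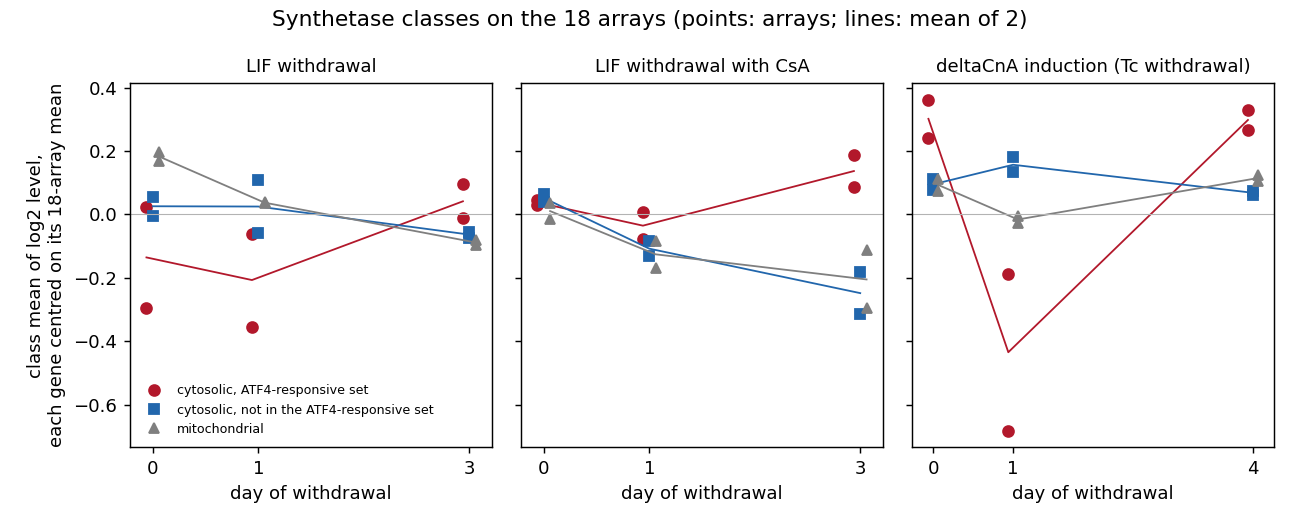
Mean log2 level of 3 synthetase classes on each of the 18 arrays (points), each gene centred on its mean over all arrays, against the day of withdrawal in each course; lines join means of 2 arrays. The ATF4-responsive set lies at -0.68 and -0.19 at day 1 of deltaCnA and at 0.24 to 0.36 on the day 0 and day 4 arrays of that course.

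In the LIF course the replicates differed from each other in this set. Centred on its mean over all arrays, the ATF4-responsive set averaged 0.02 and -0.29 on the day 0 arrays of the LIF course and -0.06 and -0.35 on the day 1 arrays, replicate 2 being the lower each time. With CsA the same averages ran from -0.08 to 0.19 over 6 arrays. Mitochondrial genes were tighter in the LIF course, at 0.17 and 0.20 on day 0, 0.04 and 0.04 on day 1 and -0.10 and -0.08 on day 3.

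After 1 day without LIF no synthetase was called. The count was 0 of 29 in limma, where 8.42% of all genes were called. At an unadjusted p under 0.05 in limma there were 4, all below 0, beside 2148 of the 10980 genes. The 4 were the cytosolic Rars and the mitochondrial Rars2, Tars2 and Wars2. Of the 11 mitochondrial genes 10 were below 0, with a median of -0.10, beside -0.01 in cytosolic genes and -0.01 over all genes.

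After 3 days without LIF 4 mitochondrial synthetases had fallen and 1 had risen. Of the 29 genes 8 were called, 3 higher and 5 lower, where 38.2% of all genes were called, 18.4% higher and 19.8% lower. Of 11 mitochondrial genes 10 were below 0, and their median was -0.26, beside 0.08 in cytosolic genes and -0.05 over all genes. Aars2, the mitochondrial alanine enzyme, went from 5.81 and 5.70 to 5.16 and 5.12, a change of -0.62 ± 0.18 (adjusted p = 0.00713). Mars2 (methionine) went from 8.20 and 8.21 to 7.37 and 7.93, a change of -0.56 ± 0.20 (adjusted p = 0.0336). Rars2 went from 10.88 and 10.79 to 10.23 and 10.34, a change of -0.55 ± 0.11 (adjusted p = 0.000321). In each of the 3 the day 3 arrays lay below both day 0 arrays. Tars2 (threonine) fell by 0.55, and Wars2 was the mitochondrial gene that rose, by 0.46. The other probes of Mars2 (-0.10), Rars2 (-0.19) and Wars2 (-0.25) were not called, and averaged over probes neither Mars2 (-0.33) nor Wars2 (0.11) was called.

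In the cytosol Iars was at 8.59 and 8.39 at day 0 and at 9.10 and 9.22 at day 3, and rose by 0.67 ± 0.23 (adjusted p = 0.0212). Cars went from 9.62 and 9.19 to 9.95 and 9.97, a change of 0.56 ± 0.18 (adjusted p = 0.0144). Farsa went from 10.45 and 10.41 to 9.88 and 10.21, a change of -0.39 ± 0.13 (adjusted p = 0.0206). None of these overlapped between the days. The other probes of Cars (-0.18 and 0.18) and of Farsa (-0.20) were not called, and the mean of the Cars probes was at 0.19 and not called. Leaving out any 1 array lowered the count of synthetases called, most without replicate 2 of day 0 or replicate 1 of day 3. The share of all genes called in those fits is not given. Aars2, Rars2 and Tars2 were called under each of the 15 alternatives. Among the 14 genes of mitochondrial translation 4 fell, among them Mtrf1l (-0.68), Tufm (-0.50) and Tsfm (-0.49), and Mtif3 rose by 0.57. All 3 paralogs and proofreading genes fell, Tarsl2 by 0.62, Prorsd1 by 0.60 and Aarsd1 by 0.40. Of 5 elongation factors Eef2 rose by 0.52 and Eef1d fell by 0.29. Of the 25 amino acid response genes 9 rose, among them Vldlr (2.70), Slc1a4 (1.24) and Atf3, which was undetected at day 0 and at least 2.04-fold higher, and 2 fell, led by Cth (-1.18). Markers moved on the same arrays. Of the 6 stem cell markers 4 fell, Zfp42 (-2.20), Esrrb (-1.86), Nanog (-1.44) and Sox2 (-0.44). Dab2 rose by 2.82, while Sox7, undetected at day 3, was at least 1.09-fold lower. Gata4, at 6.77 and 7.01 at day 0 and at 7.37 and 7.02 at day 3, was not called, nor was Gata6, undetected at both days. Dcn, undetected at day 0, was at least 5.71-fold higher, Thy1 was not called (0.40), and Tfap2c, a trophectoderm marker, fell by 0.68. Of the other trophectoderm markers, Cdx2 went from 5.57 and 6.02 to 6.02 and 6.15. Eomes went from 6.03 and 5.72 to 6.11 and 6.20, and neither was called. The part of these markers in the synthetase changes was not tested.

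In the CsA course no synthetase was called at day 1, and 9 were at day 3. The day 1 count was 0 of 29 in limma, where 4.54% of all genes were called. At an unadjusted p under 0.05 in limma there was 1, Hars, beside 1541 of the 10980 genes. The 9 at day 3 were 3 higher and 6 lower, beside 29.6% of all genes, 14.9% higher and 14.6% lower. The median was -0.28 in mitochondrial genes, -0.03 in cytosolic genes and -0.01 over all genes. Mars2 went from 7.87 and 8.04 to 6.64 and 7.43, a change of -0.92 ± 0.20 (adjusted p = 0.00136). Pars2 (proline) went from 7.78 and 7.89 to 6.96 and 7.38, a change of -0.66 ± 0.16 (adjusted p = 0.00341). In both, replicate 1 of day 3 was the lower array. Fars2 went from 10.99 and 10.79 to 11.26 and 11.31 and rose by 0.40 ± 0.11 (adjusted p = 0.0107). Tars2 was at -0.32 ± 0.12 (adjusted p = 0.0456), a call lost in 8 of the 15 alternatives, among them each left-out array. The second Mars2 probe was called lower (-1.02), and the second Pars2 probe (-0.21) and the mean of the Pars2 probes (-0.44) were not called.

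Of the cytosolic genes Hars was at 6.03 and 6.11 at day 0 and at 4.72 and 5.57 at day 3, where it was detected on 1 of the 2 arrays, and its change was -0.93 ± 0.23 (adjusted p = 0.00399). Cars went from 9.59 and 9.62 to 10.19 and 9.97, a change of 0.47 ± 0.18 (adjusted p = 0.0457). Sars went from 11.15 and 11.15 to 11.57 and 11.61, a change of 0.44 ± 0.16 (adjusted p = 0.0419). All 3 separated the days without overlap. Rars went from 11.74 and 11.71 to 11.28 and 11.42, a change of -0.38 ± 0.11 (adjusted p = 0.0151), and Farsa from 10.57 and 10.73 to 10.21 and 10.34, a change of -0.37 ± 0.13 (adjusted p = 0.0336). The calls of Cars and Sars were lost when any of the 4 arrays was left out and under median scaling. A second Sars probe was called higher at 0.87. The second Farsa probe (-0.01) was not called, and the means of the probes of Cars (0.33) and Farsa (-0.19) were not either. Leaving out any 1 array lowered the count of synthetases called, most without replicate 1 of day 3. The share of all genes called in those fits is not given. Of 14 mitochondrial translation genes 5 fell, among them Mtrf1l (-0.89) and Tufm (-0.67), and 1 rose. Aimp2, a scaffold of the complex, fell by 0.60, and Prorsd1 by 0.86. Eef2 and Eef1b2 rose, by 0.41 and 0.36. Markers moved here too: Zfp42 (-0.86), Esrrb (-0.41) and Nanog (-0.32) fell, Gata4 rose by 0.48 and Gata6, detected on 1 of the 2 day 0 arrays, by 0.98. Dab2 and Dcn, undetected at day 0, were at least 2.24-fold and at least 1.41-fold higher. Sox7, undetected at both days, was not called. Thy1, the other measured fibroblast marker, was at -0.45 and was not called. The part of these markers was not tested.

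Cells with CsA were compared with cells without it at each day, on the arrays already used for the 2 courses. The day 0 arrays of both courses already differed, with 13.2% of all genes called, 6.17% higher with CsA and 6.99% lower. Of the 29 synthetases 3 were called. Qars was at 13.05 and 12.97 with CsA and at 12.79 and 12.56 without, and was higher by 0.34 ± 0.11 (adjusted p = 0.0427). Rars2 was at 10.24 and 10.26 with CsA and at 10.88 and 10.79 without, lower by a log2 change of -0.59 ± 0.11 (adjusted p = 0.0013). Tars2 was at 9.41 and 9.36 against 9.73 and 9.86, a change of -0.41 ± 0.12 (adjusted p = 0.0251). The groups did not overlap for these 3 genes. The second Rars2 probe (-0.28) was not called. The medians were 0.19 in cytosolic genes and -0.16 in mitochondrial genes. The count rose when replicate 1 of the untreated cells was left out and fell without any other of these arrays. The share of all genes called in those fits is not given. With a replicate block within each course the count of synthetases was 6, beside 1066 genes higher and 1211 lower over all genes. Of the 25 amino acid response genes 7 were higher with CsA, led by Ddit3 (1.62) and Vldlr (1.40), and the scaffold gene Aimp2 was lower by a log2 change of -0.50. Tfap2c was higher by 0.67, while the trophectoderm markers Cdx2 and Eomes were not called. Dab2, undetected with CsA, was at least 1.32-fold lower, the only 1 of the 4 measured primitive endoderm markers called. Gata4 was at 7.11 and 7.08 with CsA against 6.77 and 7.01, and Gata6 at 4.605 and 5.31 against 4.46 and 4.66. Sox7 was at 4.53 and 4.75 with CsA against 5.15 and 5.23. The part of these markers was not tested.

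At day 1, 1 of the 29 genes was called, beside 10.8% of all genes, 5.42% higher and 5.34% lower. Rars2 was at 10.13 and 10.16 with CsA and at 10.55 and 10.55 without, a change of -0.40 ± 0.11 (adjusted p = 0.0206). Its call was lost when any of the 4 arrays was left out. With a replicate block within each course the count was 6, beside 1025 genes higher and 934 lower over all genes. Nanog (0.49), Esrrb (0.43) and Tfap2c (1.02) were higher with CsA on these arrays, while the trophectoderm markers Cdx2 and Eomes were not called. The stem cell marker Tdgf1 was at 5.02 and 5.06 with CsA, where it was undetected, against 5.70 and 5.65, and was not called. Dab2 (-0.68) and Thy1 (-0.66) were lower, and Dcn, undetected with CsA, was at least 2.62-fold lower. Dab2 was the only 1 of the 4 measured primitive endoderm markers called. Gata4 was at 7.32 and 7.12 with CsA and at 6.90 and 6.92 without, and Gata6 and Sox7 were undetected in both groups. The part of these markers was not tested. The medians were 0.14 in cytosolic genes and -0.22 in mitochondrial genes.

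At day 3, 7 of the 29 genes were called, 5 lower and 2 higher with CsA, beside 38.1% of all genes, 19% higher and 19.1% lower. Kars was at 12.05 and 11.86 with CsA and at 12.67 and 12.43 without, a change of -0.60 ± 0.12 (adjusted p = 0.000413), and it was called under each of the 15 alternatives. The second Kars probe (-0.20) was not called. Rars was at 11.28 and 11.42 against 11.64 and 11.90, a change of -0.42 ± 0.11 (adjusted p = 0.00554). Both charge basic amino acids and sit in the multi-synthetase complex, and neither is in the ATF4-responsive set, of which no gene was called. Of the 7 measured genes of the complex these 2 were called, beside 38.1% of all genes. In the complex 4 genes lay above 0, with a median of 0.04. The scaffold gene Aimp2 was lower by a log2 change of -1.25 on these arrays, at 9.91 and 9.91 with CsA against 11.10 and 11.21 without. The scaffold genes Aimp1 and Eef1e1 were not called.

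The mitochondrial genes called at day 3 went both ways. Pars2 was at 6.96 and 7.38 with CsA against 7.79 and 7.78 without, a change of -0.61 ± 0.16 (adjusted p = 0.00453). Mars2 was at 6.64 and 7.43 against 7.37 and 7.93, a change of -0.61 ± 0.20 (adjusted p = 0.0196), and the groups overlapped. Nars2 (asparagine) was at 6.41 and 6.33 against 5.69 and 5.84, higher by 0.60 ± 0.19 (adjusted p = 0.0126). The second Mars2 probe was called lower at -1.15, and those of Nars2 (-0.14) and Pars2 (0.0033) were not called. Averaged over their probes, Nars2 (0.23) and Pars2 (-0.31) were not called. Fars2 was higher by 0.46 and Vars2 (valine) lower by a log2 change of -0.38. The count of synthetases called fell without replicate 1 of the CsA arrays, and the share of all genes called in that fit is not given. Of the 14 genes of mitochondrial translation 4 were lower with CsA, led by Mtif3 (-1.13) and Gatb (-0.65), and 1 was higher. Of all genes tested 19.1% were lower and 19% higher. Of the 25 amino acid response genes 8 were higher and 1 lower, led by Nupr1 (2.65) and Ddit3 (2.54), while the ATF4-responsive synthetases had a median of 0.12 with none called. Markers differed on these arrays. Of the 6 stem cell markers 4 were higher with CsA, Esrrb (1.55), Zfp42 (1.13), Nanog (0.98) and Sox2 (0.37), as was Tfap2c (1.84). Of the other trophectoderm markers, Cdx2 was at 5.61 and 5.60 with CsA and at 6.02 and 6.15 without. Eomes was at 6.21 and 6.26 against 6.11 and 6.20, and neither was called. Dab2 (-2.06), Dcn (-2.00) and Thy1 (-1.44) were lower, and Gata6, undetected without CsA, was at least 1.84-fold higher. Gata4, at 7.60 and 7.55 with CsA and at 7.37 and 7.02 without, was not called, nor was Sox7, undetected in both groups. The part of all these markers was not tested.

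Whether the change from day 0 to day 3 differed with CsA was asked of the interaction. None of the 29 genes was called in limma, where 15.3% of all genes were. At an unadjusted p under 0.05 in limma there were 5 of the 29, beside 3025 of the 10980 genes. Nars2 came nearest, at 0.73 ± 0.26 (adjusted p = 0.0619), followed by Fars2 at 0.42 ± 0.16 (adjusted p = 0.0839). With a replicate block within each course 3 were called, beside 1241 genes higher and 1142 lower over all genes.

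**Figure D4:**
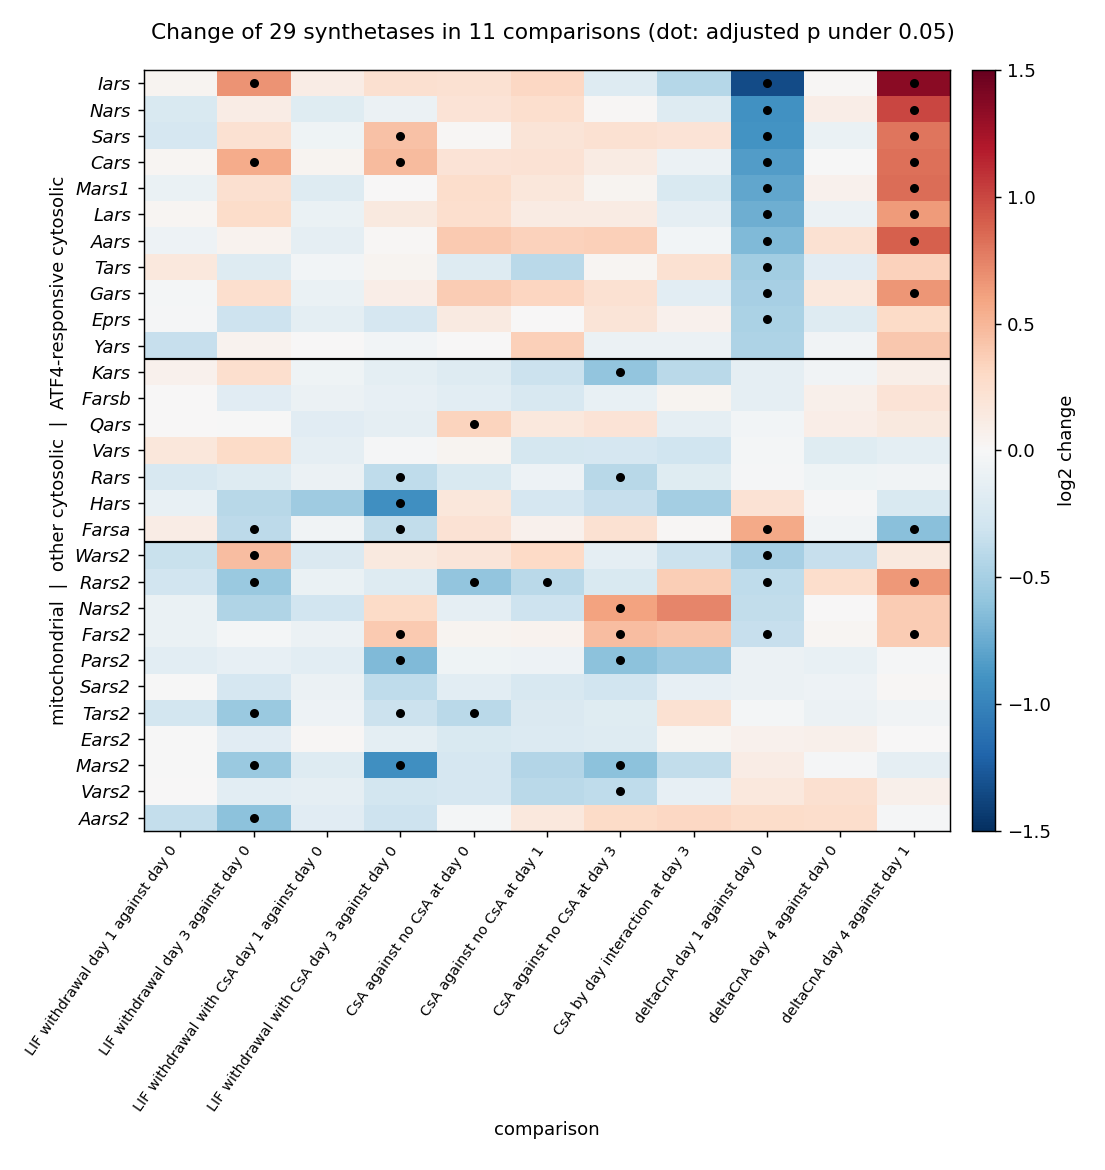
Log2 change of the 29 synthetases (rows, by class) in 11 comparisons (columns), with a dot where the adjusted p is under 0.05; red is higher and blue lower. The column of deltaCnA day 1 against day 0 holds 14 dots, 10 of them blue in the ATF4-responsive set, and the columns of day 1 without LIF, day 1 of the CsA course, the interaction and deltaCnA day 4 against day 0 hold none.

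Across all 9 groups, the group with the lowest mean was noted for each gene. Of the 18 cytosolic genes 10 had their lowest group mean at day 1 of deltaCnA, all in the ATF4-responsive set, where 11.1% of all genes tested did. Iars spanned the widest range of group means of any cytosolic gene, 1.36 log2 units, against a pooled replicate SD of 0.31. Of the 11 mitochondrial genes 6 (Mars2, Pars2, Rars2, Sars2, Tars2 and Vars2) had their lowest mean at day 3 with CsA, where 20.2% of all genes did. Mars2 spanned the most of the mitochondrial genes, 1.17, with a pooled SD of 0.24. Farsb, Ears2 and Vars varied least, over 0.37, 0.38 and 0.38 log2 units. The cytosolic median change exceeded the mitochondrial one by 0.34 at day 3 without LIF, 0.25 at day 3 with CsA and 0.35, 0.36 and 0.23 for CsA against no CsA at days 0, 1 and 3. At day 1 of deltaCnA the difference was -0.40. The medians there were -0.73 in the ATF4-responsive set, -0.03 in the other cytosolic genes and -0.09 in the mitochondrial genes. The difference was 0.10 at day 1 without LIF, 0.05 at day 1 with CsA and -0.16 for the interaction. For deltaCnA day 4 it was -0.04 against day 0 and 0.37 against day 1.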

How the data were processed

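Total RNA of 18 samples was hybridised to Illumina Sentrix Mouse-6 v1.1 arrays, per the labels. The authors deposited intensities that the file header calls non-normalized. Between 31.15% and 35.24% of an array's values were negative, which means some background had already been taken off. Detection p-values were deposited beside each intensity. The authors' second table holds processed intensities whose method is not given in the sources used here, and served as an alternative.

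Intensities were background-corrected by normexp with the detection p-values and an offset of 16, quantile-normalized and put on a log2 scale in limma 3.58.1 (R 4.3.3). Probes detected (p under 0.05) on both arrays of a group were kept, 21691 of 46632, and the brightest kept probe stood for each gene. Of all probes 29976 had 1 gene symbol, 10 several and 16646 none. One model of 9 group means, with 9 residual degrees of freedom and a trended prior, gave 11 comparisons, of which 1 was added after the data were seen. P-values were adjusted by Benjamini-Hochberg over all genes. The test was checked on simulated data. The number of arrays limits the precision.

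The members, gene lists and tests were chosen with earlier results of these data known. Every synthetase could be named, with values on each array for up to 5 called cytosolic and 3 called mitochondrial genes of largest change per comparison, and up to 4 called genes per list. Promoter sequences came from RefSeq on GRCm38.p6. Alternatives were the background correction, normalization, probe filter, probe choice, arrays in the fit, the authors' processed values, a replicate block and leaving out each array.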

Additional observations from a re-analysis of the deposited data

How the results depend on the processing

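Of the alternatives that kept all arrays, scaling to a common median changed the most calls. It gave 3 synthetases at day 3 without LIF, 3 at day 3 of the CsA course, 0, 0 and 2 for CsA against no CsA at days 0, 1 and 3, 6 at day 1 of deltaCnA and 7 for day 4 against day 1, and 32 of the 53 gene values with a call lost it, none reversed. Calls over all genes fell under it too, given here as higher and lower with the main fit in brackets. At day 3 they were 1361 and 1707 (2020 and 2172) without LIF and 895 and 885 (1639 and 1607) in the CsA course. For CsA against no CsA they were 153 and 276 (678 and 768) at day 0 and 276 and 123 (595 and 586) at day 1. At day 3 of that comparison they were 1220 and 1410 (2085 and 2098). For deltaCnA day 4 against day 1 they were 322 and 359 (902 and 819). Median scaling also moved the cytosolic minus mitochondrial median change for CsA at day 1 to 0.23. Under it, 20% of all genes called at day 1 without LIF were higher, against 44.3% under quantile normalization, 34.1% against 51.6% at day 1 of the CsA course, 35.7% against 46.9% for CsA at day 0 and 69.2% against 50.4% at day 1. Fitting only the arrays compared gave 1 gene for CsA at day 0, 2 at day 1 and 9 at day 1 of deltaCnA. The share of all genes called when only those arrays were fitted is not given, so these counts are not a result about the synthetases. The authors' processed values gave a median difference of 0.23 for day 4 against day 1 of deltaCnA. The cause of these moves was not tested. With the replicate number as a block, CsA at day 1 gave 2 genes and the interaction 1. Calls over all genes rose too, given again as higher and lower with the main fit in brackets. They were 708 and 678 (595 and 586) for CsA at day 1 and 964 and 873 (877 and 801) for the interaction. With a replicate block within each course, added after the data were seen, CsA at days 0 and 1 gave 6 and 6 genes and the interaction 3. Over all genes that block gave 1066 and 1211 for CsA at day 0, 1025 and 934 at day 1, and 1241 and 1142 for the interaction. All 53 calls were kept under both blocks. Same-numbered samples are not stated to be pairs; their deviations from group means correlated at 0.13 to 0.35 within a course, 0.05 to 0.35 between the LIF and CsA courses and -0.21 to 0.06 between deltaCnA and the others. Leaving out 1 array gave 3 to 7 genes at day 3 without LIF, 1 to 6 at day 3 of the CsA course, 1 to 5, 0 to 1 and 2 to 9 for CsA at days 0, 1 and 3, 0 to 2 for the interaction, 2 to 11 at day 1 of deltaCnA and 7 to 11 for day 4 against day 1. Outside day 1 of deltaCnA against day 0 the share of all genes called in these fits is not given. A lower count there is therefore not a result about the synthetases. With 1 array left out, the cytosolic minus mitochondrial difference ran from 0.0046 to 0.33 at day 1 and 0.24 to 0.69 at day 3 without LIF. It ran from 0.17 to 0.45 and 0.099 to 0.41 for CsA at days 0 and 1, and from -0.4227 to -0.0194 for the interaction. Yars, not called with all arrays, ran from -1.0071 without replicate 2 of deltaCnA day 1 to 0.0855 without replicate 1 at day 1, and from -0.1362 without replicate 1 to 0.9563 without replicate 2 for day 4 against day 1.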
